A study of Homo sapiens with 12 samples.

Results

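The 34 genes described here encode the translation initiation factors outside the cap-binding eIF4F complex, together with the kinases that act on eIF2. They were chosen by gene name from the 20212 protein-coding genes of the count table, and all 34 had enough counts to be tested among 13329 genes. They comprise EIF1, EIF1B and EIF1AX, the 3 subunits of eIF2, the 5 subunits of its exchange factor eIF2B, 4 eIF2 kinases, EIF2A and EIF2D, 13 subunits of eIF3, and EIF4H, EIF5, EIF5B and EIF6. Ribosome footprint (RF) and total RNA libraries came from PANC-1 cells, an established human pancreatic cancer cell line whose label gives the pancreatic duct as source. The cells received either the vehicle DMSO or 50 nM rapamycin, an inhibitor of the mTORC1 kinase complex, for 60 min. With 3 cultures per treatment and an RF and a total RNA library from every culture, there were 12 libraries, all from a single cell line, dose and time.

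In the textbook pathway, eIF2 carries the initiator tRNA to the small ribosomal subunit, where eIF1 and eIF1A keep the subunit open for scanning and eIF3 serves as the scaffold. When the start codon is found, eIF1 leaves, eIF5 stimulates GTP hydrolysis by eIF2, and eIF5B joins the large subunit. eIF2B then reloads eIF2 with GTP, and stress kinases that phosphorylate eIF2 block that step. Several mRNAs of the translation machinery begin with a run of pyrimidines (the TOP motif), a class whose translation is known to depend on mTORC1.

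RF counts per library ranged from 278835 to 1574723, while total RNA libraries were far deeper, at 78081241 to 94293744 counts. The limit set by a count of 0, taken as 3 counts, reached 9.98 CPM (counts scaled to library size by TMM) in the RF library with the highest limit, Rapamycin replicate 3, and covers counting error only. The biological coefficient of variation was 54.9% in RF and 5.31% in total RNA, each fitted alone, and 24.4% in the fit over both library types. The duct keratins KRT8, KRT18 and KRT19 had between 1326 and 1765 FPKM (fragments scaled to transcript length and library size), and KRT7, SOX9 and EPCAM between 4.58 and 22.5 FPKM. The 10 markers of blood, acinar, endocrine and endothelial cells found in the table stayed at or below 0.728 FPKM in every library. Among the RF libraries, DMSO replicate 2 stood apart for EIF5 on the high side, and the ratio and changes of EIF5 are given with and without that culture. The same library was low for EIF2A, EIF2S1 and EIF2S2, and held no read of EIF2D or EIF2AK3. EIF2S1, for example, had 47.8 RF CPM there, against 132 and 128 RF CPM in the other DMSO cultures.

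The annotated 5′ ends of the canonical isoforms split eIF3 by position in the complex, but this depended on the isoform. A pyrimidine 5′ end, counted here as a C at the first base followed by at least 4 pyrimidines on the transcript strand, was present in 12 of 34 members (35.3%), against 5.39% of the 12814 tested genes with a canonical isoform. All 8 subunits of the eIF3 octamer core (A, C, E, F, H, K, L and M) had one. Of the other 5 eIF3 subunits only EIF3D had one, and of the 21 members outside eIF3 only EIF2A, EIF2D and EIF2S3. The first 20 bases of the canonical GENCODE transcript (GRCh37) are shown for 6 core subunits and EIF3D, and for 2 subunits without the motif, with the pyrimidine run in capitals.
EIF3A: CCTTTCCgtctctggccggc
EIF3C: CTCTCTCggcgtttccgctg
EIF3F: CTTCTTTCTCgacaagatgg
EIF3K: CTCTTCCTgttcccgtcctt
EIF3L: CTTTCCggcggtgctcgcaa
EIF3M: CTTTTCCggtcggcgtggtc
EIF3D: CTCTTTTCCTggtttctcaa
EIF3G: ctctggccgggcttgggctg
EIF3I: actcacgttgcggccttcct
The run was longest in EIF3D and EIF3F among the sequences shown, at 10 pyrimidines each, and EIF3G stopped short of the count with a G in its run. With the isoform of highest FPKM in place of the canonical one, 6 of 34 members (17.6%) had a pyrimidine 5′ end, against 4.21% of tested genes. They were EIF3A, EIF3E and EIF3K of the core, and EIF2A, EIF2D and EIF2S3 outside eIF3. The other core subunits and EIF3D lacked it in that isoform.

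The start codons of the scanning factors differed from one another. A purine at position −3 and a G at +4, counted from the A of the ATG as +1, mark a strong context. EIF1 and EIF1B, close relatives, had C at −3 and T at +4, a combination found in 112 of 12814 genes (0.874%) and in no other member. EIF1AX had a purine at −3, and EIF5 had A at −3 with T at +4 behind 3 upstream ATGs, which 12.4% of the genes matched or passed. Vertebrate EIF1 and EIF5 mRNAs are known for start sites whose use depends on how strictly the ribosome selects its start codon. The bases around the start codon are shown because these factors set that choice, with −3, the ATG and +4 in capitals.
EIF1: tcgtatCgtATGTcc
EIF1B: tagtatCgcATGTcc
EIF1AX: gccaccGccATGCcc
EIF5: taagccAaaATGTct
EIF5B: tgacaaGcaATGGgg
EIF2S1: tacctcAgaATGCcg
Over the whole list, 28 of 34 members (82.4%) had a purine at −3, against 86.9% of the genes. At least 1 upstream ATG was present in 8 of 34 members (23.5%), against 40.9%, and in none of the 8 core subunits of eIF3.

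Levels were compared between genes as RF density (RF CPM per kb of coding sequence) and as FPKM of total RNA, in DMSO. Over the 10501 genes with a mean of at least 1 FPKM and a coding length, the median ratio of RF density to FPKM was 0.973, and the 10th and 90th percentiles were 0.271 and 3.36. Most members lay near this line, whereas EIF5, EIF1, EIF1B, EIF5B and EIF3C lay above the 90th percentile and EIF2D below the 10th. Without DMSO replicate 2, EIF2D lay at percentile 10.8.

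**Figure D1:**
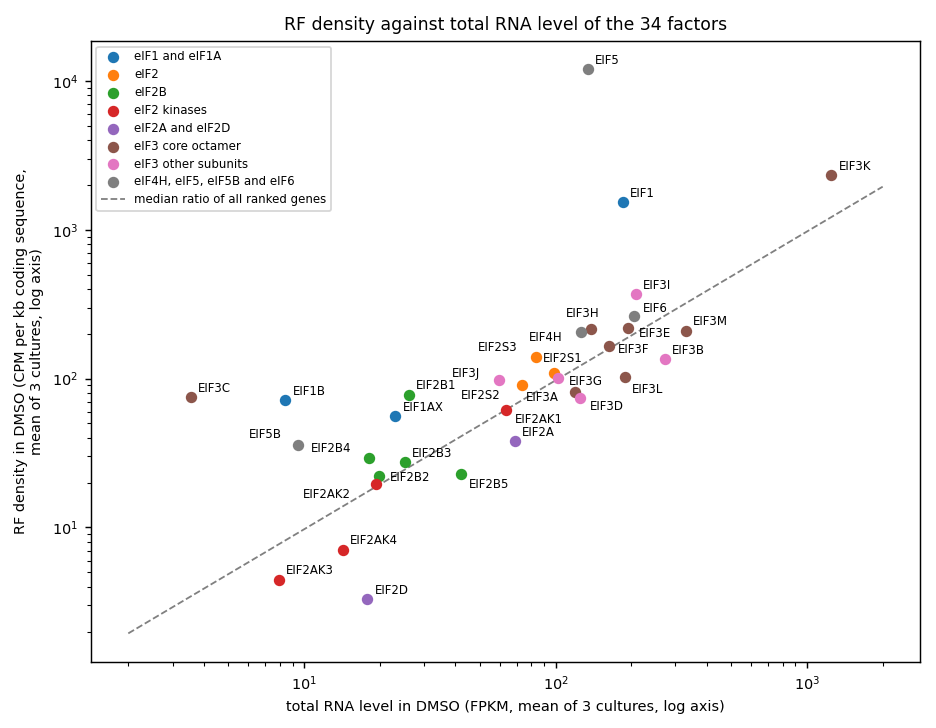
RF density (CPM per kb coding sequence, vertical log axis) against total RNA level (FPKM, horizontal log axis) in DMSO, each point 1 of the 34 genes as the mean of 3 cultures, coloured by subgroup, with the median ratio of all ranked genes as a dashed line. EIF5 sits highest, EIF3K lies furthest to the right at 1248 FPKM, and EIF3C, EIF1, EIF1B and EIF5B stand above the line.

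EIF5, the GTPase-activating protein of eIF2 (chr14:103799881-103811362, plus strand), had the highest footprint level of the list. Its RF density was 4594, 25715 and 5722 in the DMSO cultures and 5501, 4244 and 6594 in the rapamycin cultures, on an RNA level of 132 to 138 FPKM in DMSO and 127 to 136 FPKM in rapamycin. The second DMSO culture was thus several times above the other 5 libraries, which overlapped between treatments. In that library EIF5 ranked 2 among all genes by RF count, with 26458 counts, and in the other libraries it ranked between 12 and 20. The ratio of RF density to FPKM was 89.1 in DMSO, percentile 99.6 of the ranked genes. Without DMSO replicate 2, a setting added after seeing the data, it was 38.7, percentile 99.4. The annotation places the small nucleolar RNA gene SNORA28 (chr14:103804186-103804311) inside EIF5 on the same strand, overlapping 0 of its exons. Where along EIF5 the footprints lie was not analysed here.

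EIF1, the gatekeeper of start codon selection (chr17:39845137-39848920, plus strand), had RF densities of 1079.8, 1979.6 and 1543 in DMSO and 1494, 1239 and 1521 in rapamycin. The treatments overlapped. Against 185 ± 8.36 FPKM (SD, n = 3) its ratio was 8.29, percentile 97.1. EIF1B, its paralogue, had a nearly equal ratio of 8.49 at a far lower level, with an RF density of 71.6 ± 23.0 and 8.43 ± 0.767 FPKM (SD, n = 3). EIF1AX, which encodes eIF1A and has a close homologue on the Y chromosome, had a ratio of 2.43, and EIF5B, the GTPase of subunit joining, one of 3.76. EIF2D, an eIF2-independent tRNA delivery factor, had the lowest ratio of the list, 0.185, on 30 RF counts in all 6 libraries together. Its ratio was 0.281 without DMSO replicate 2.

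The subunits of eIF3 did not have equal levels. EIF3K, a small peripheral subunit of the octamer (chr19:39109722-39127595, plus strand), had RF densities of 2394, 2014 and 2546 in DMSO and 2267, 2108 and 2142 in rapamycin. Its total RNA stood at 1251, 1264 and 1230 FPKM in DMSO and at 1184, 1145 and 1190 FPKM in rapamycin. In the single DMSO cultures EIF3K was 15.2 to 19.6 times the median of 11 other subunits in RF density and 7.49 to 7.92 times in FPKM, so it was high in both measures and its ratio, 1.86, was unremarkable. Its lowest culture was far above the highest culture of EIF3I, the next subunit, at 409 CPM per kb.

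The 11 other subunits, leaving out EIF3C, ranged 4.97-fold in RF density, from 74.3 for EIF3D, the subunit that can bind the cap, to 369 for EIF3I, a WD-repeat subunit. In FPKM they ranged 5.53-fold, from 59.7 for EIF3J, a loosely bound subunit, to 330 for EIF3M. The order differed between the measures: EIF3B, the RNA-binding scaffold with EIF3A, followed EIF3K and EIF3M in FPKM, at 271 ± 7.03, but had an RF density of 135 ± 28.2 (SD, n = 3). EIF3E, EIF3H and EIF3M, with mean RF densities of 217, 214 and 210, did not differ beyond their spread. EIF3D varied most between cultures relative to its mean, at 58.0, 39.7 and 125 CPM per kb in DMSO.

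EIF3C, a core subunit (chr16:28699879-28747048, plus strand), is uncertain. It had an RF density of 75.1 ± 13.1 (SD, n = 3), close to that of EIF3D and EIF3A, but an RNA level of only 3.54 ± 0.115 FPKM. The near-identical gene EIF3CL (chr16:28390900-28415162) drew 48, 111 and 300 RF counts in DMSO beside 67, 135 and 355 on EIF3C, and only uniquely aligned reads were counted. In total RNA the DMSO counts were 137, 170 and 163 on EIF3CL beside 920, 871 and 929 on EIF3C, so the split differed between library types. The ratio, TE and total RNA change of EIF3C are therefore uncertain too. How reads divide between both copies was not tested.

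**Figure D2:**
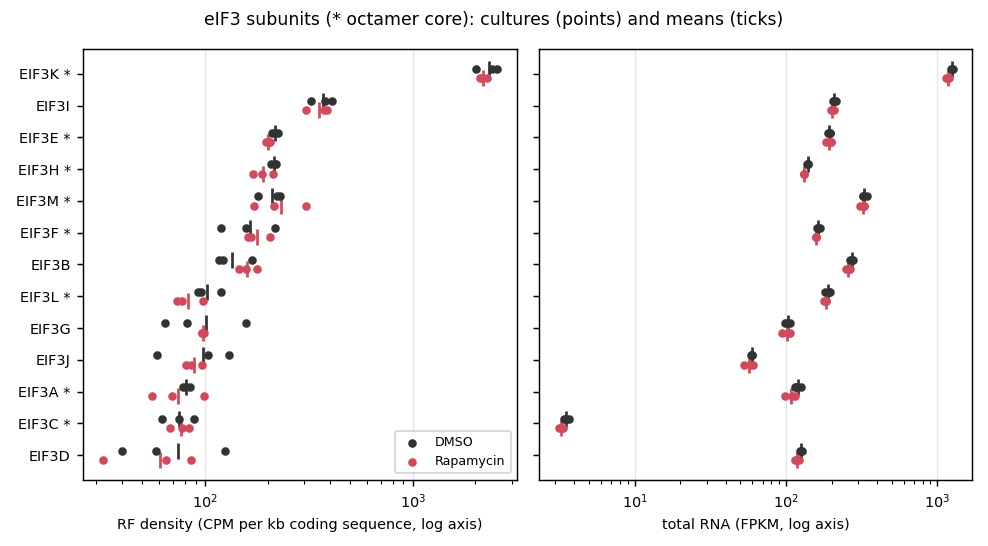
The 13 eIF3 subunits by RF density (left, CPM per kb coding sequence) and total RNA (right, FPKM), both on log axes, with cultures as points (DMSO black, rapamycin red) and treatment means as ticks, and octamer core subunits starred. EIF3K is far to the right in both panels and EIF3C far to the left in total RNA alone, while the DMSO and rapamycin points of most subunits overlap.

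The 3 subunits of eIF2, which form a complex of equal parts, spanned a narrow range in their DMSO means, but not in every culture. RF density ranged 1.54-fold, from 91.1 ± 39.2 for EIF2S2 (beta) to 140 ± 38.3 for EIF2S3 (gamma), with EIF2S1 (alpha, the phosphorylated subunit) at 109 ± 50.5 (SD, n = 3), and the 3 ranges overlapped. In DMSO replicate 2 the densities were 50.5 for EIF2S1, 46.5 for EIF2S2 and 178 for EIF2S3. The range of means was 1.22-fold without that culture, and 2.52-fold with the exonic length of the whole gene. FPKM ranged 1.34-fold, from 73.5 to 98.2. The 5 subunits of eIF2B had lower levels, between 22.2 for EIF2B2 and 78.0 for EIF2B1 in RF density and between 18.1 for EIF2B4 and 42.2 for EIF2B5 in FPKM. EIF2B5, the catalytic subunit, thus had the highest RNA of the 5 but an RF density of only 22.9 ± 7.44 (SD, n = 3), and EIF2B1, a regulatory subunit, the highest RF density. The 4 eIF2 kinases ranged from 4.45 ± 4.17 for EIF2AK3 (PERK, the endoplasmic reticulum stress kinase) to 61.5 ± 6.25 (SD, n = 3) for EIF2AK1 (HRI, the heme-regulated kinase) in RF density.

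The study's main question was which mRNAs change in translation efficiency (TE, RF over total RNA) after rapamycin. By the quasi-likelihood test of edgeR, adjusted over all genes by the Benjamini-Hochberg method, no member passed an adjusted p of 0.05 in TE, RF or total RNA, and neither did any other gene (percent called 0). Without DMSO replicate 3, edgeR called 374 genes lower and 70 higher in TE and 6 lower and 875 higher in total RNA, with 0 members among them. At an unadjusted p of 0.05, TE was lower for 1 member and higher for none, against 6.42% and 6.17% of all genes in each direction. DESeq2's Wald test called 1 member lower in TE at an adjusted p of 0.05 (EIF2B3, adjusted p = 0.00486, against 4.38% of genes) and 0 higher (4.93%), and placed 4 lower and 0 higher at an unadjusted p of 0.05 (EIF2B3, EIF2B4, EIF2AK4 and EIF3L, against 11.2% and 10.5%), whereas limma voom called 0 at either. The median log2 change in TE was −0.10 over the members and −0.06 over all genes, and 21 of 34 members had a lower fitted value, against 53.7% of genes. Without DMSO replicate 3, the median over the members was 0.00, and 17 of 34 were lower.

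**Figure D3:**
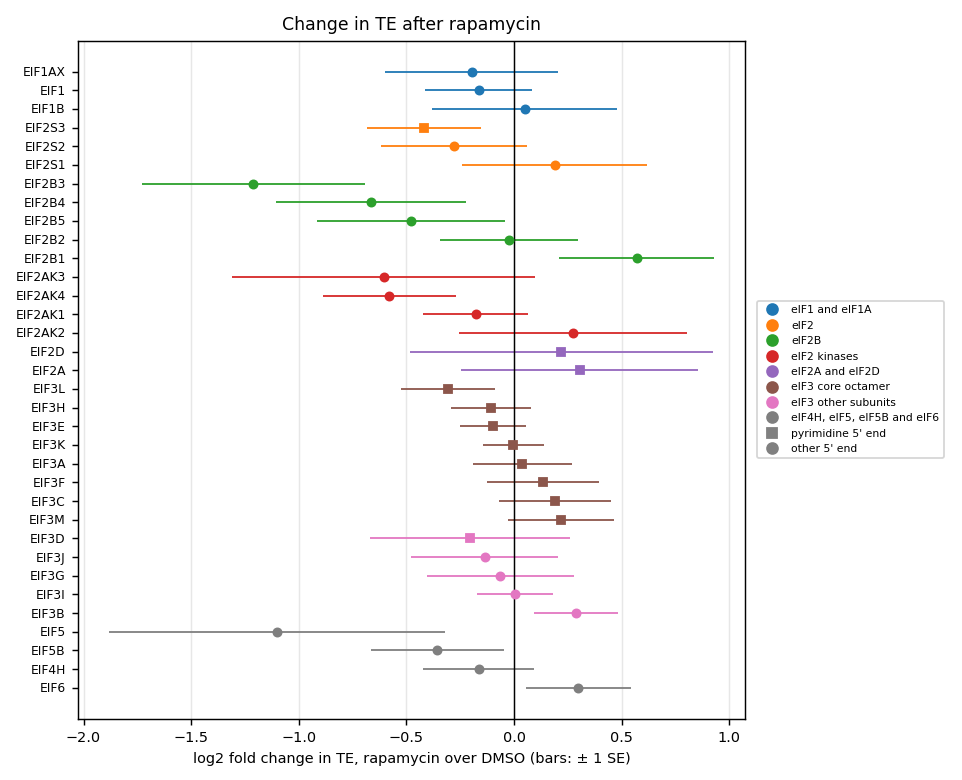
Fitted log2 change in TE after rapamycin for the 34 members (points, bars of 1 SE), ordered by subgroup, with squares for a pyrimidine 5′ end and circles for other 5′ ends. EIF2B3 and EIF5 lie furthest to the left at −1.21 and −1.10, EIF2B1 furthest to the right at 0.57, and the eIF3 subunits cluster around 0.

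The largest fitted changes in TE were in eIF2B and EIF5. EIF2B3, the gamma subunit and partner of the catalytic subunit (chr1:45316194-45452394, minus strand), drew 7, 46 and 47 RF reads from the DMSO cultures and 21, 18 and 1 from the rapamycin cultures. Scaled to library size these were 21.5, 57.8 and 31.9 CPM against 17.4, 21.8 and 3.33 CPM, so the lowest DMSO culture lay just below the highest rapamycin culture, and the value of rapamycin replicate 3 was below the limit of 3 counts. Total RNA of EIF2B3 had a log2 change of −0.01 (SE 0.05). The log2 change in TE was −1.21 (SE 0.52, edgeR unadjusted p = 0.0344, adjusted p = 0.358). It was −0.77 without DMSO replicate 2 (unadjusted p = 0.0804).

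EIF2B4, the delta subunit (chr2:27587219-27593205, minus strand), had 64.6, 39.0 and 34.6 RF CPM in DMSO and 31.5, 26.6 and 9.98 RF CPM in rapamycin, without overlap. It drew 21, 31 and 51 RF reads from DMSO and 38, 22 and 3 from rapamycin cultures, so rapamycin replicate 3 was at the limit of 3 counts. Its log2 TE was likewise lower in every rapamycin culture, at −0.23, −0.38 and −1.66 against 0.74, 0.02 and −0.18. The value of −1.66 came from the library at the limit. The change in TE of EIF2B4 was −0.66 (SE 0.44, edgeR adjusted p = 0.566). EIF2B5 had 64.6, 51.5 and 32.6 RF CPM in DMSO and 40.6, 31.5 and 9.98 RF CPM in rapamycin, which overlapped. Its rapamycin replicate 3 was also at the limit of 3 counts, and its change in TE was −0.48 (SE 0.43). Of the other regulatory subunits, EIF2B2 had a change of −0.02 (SE 0.32) and EIF2B1 one of 0.57 (SE 0.36). EIF2B1 had 155 RF CPM in rapamycin replicate 1 and between 66.6 and 78.7 RF CPM in the other 5 libraries, so 1 culture carried its difference. Exons of the opposite-strand genes DDX55 and GTF2H3 cover 14.8% and 0.772% of its exonic bases.

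Of the eIF2 kinases, EIF2AK4 (GCN2, the amino acid sensor) drew 10, 32 and 50 RF reads from DMSO and 30, 17 and 7 from rapamycin cultures. Scaled to library size these were 30.8, 40.2 and 33.97 RF CPM against 24.9, 20.6 and 23.3 RF CPM, without overlap. Counting error is large at 10 and 7 reads. Its log2 TE was −1.60, −1.21 and −1.45 in DMSO and −1.80, −2.09 and −1.91 in rapamycin, a change of −0.58 (SE 0.31, edgeR unadjusted p = 0.0803, adjusted p = 0.458). The two-sided exact permutation test gave p = 0.1 for EIF2AK4 and EIF2B4, the smallest that 3 cultures against 3 allow. EIF2AK3 drew 9, 0 and 25 RF reads from DMSO and 10, 9 and 1 from rapamycin cultures, too few for its change of −0.60 (SE 0.70) to be read. EIF2AK1 had a change of −0.18 (SE 0.24) and EIF2AK2 (PKR, the double-stranded RNA kinase) one of 0.27 (SE 0.53). Members whose log2 TE was below all DMSO cultures in every rapamycin culture were 2 of 34, against 6.19% of genes, and none lay above, against 4.8%. In RF alone, EIF3E joined EIF2B4 and EIF2AK4 as 3 of 34 (4.21% of genes), with 289, 282 and 299.6 RF CPM in DMSO and 270.3, 273 and 263 RF CPM in rapamycin, and 0 of 34 lay above (5.24%).

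**Figure D4:**
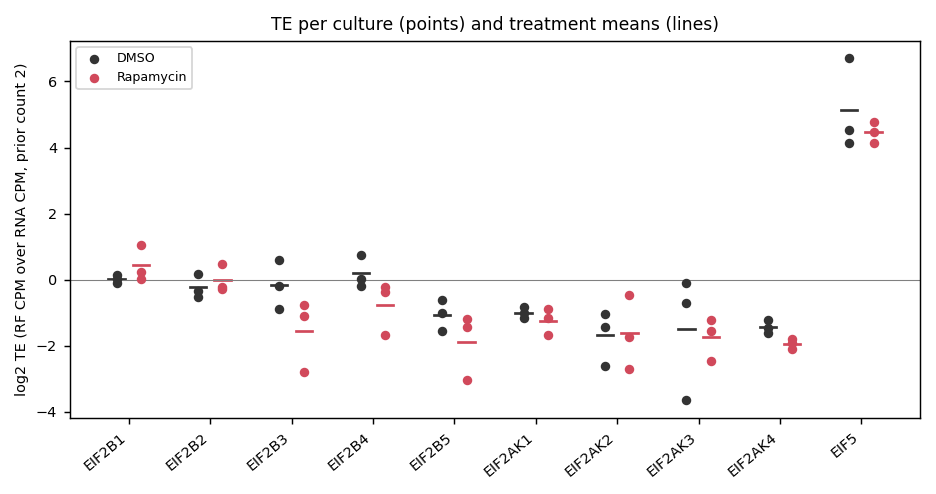
log2 TE (RF CPM over total RNA CPM, prior count 2) of the eIF2B subunits, the eIF2 kinases and EIF5 in each culture (points, DMSO black, rapamycin red) with treatment means as lines. The treatments separate without overlap for EIF2B4 and EIF2AK4 alone among these 10 genes, and a single DMSO culture of EIF5 stands at 6.71 above the rest.

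EIF5 had a log2 TE of 4.15, 6.71 and 4.52 in DMSO and 4.46, 4.13 and 4.77 in rapamycin. The fitted change was −1.10 (SE 0.78, edgeR adjusted p = 0.605) with all cultures and 0.13 (SE 0.22, edgeR adjusted p = 0.857) without DMSO replicate 2, so 1 library set its sign. EIF1 had a change of −0.16 (SE 0.25), EIF1AX of −0.20 (SE 0.40) and EIF5B of −0.36 (SE 0.31), with opposite-strand exons of REV1 over 10.8% of the exonic bases of EIF5B. EIF6, which keeps free large subunits apart from small ones, had 0.30 (SE 0.24). In eIF2, EIF2S3 had a change of −0.42 (SE 0.26), EIF2S2 of −0.28 (SE 0.34) and EIF2S1 of 0.19 (SE 0.43). Without DMSO replicate 2, EIF2S2 had −0.60 (edgeR unadjusted p = 0.0148, adjusted p = 0.244) and EIF2S1 −0.16, so that library set the sign of EIF2S1.

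The eIF3 subunits had fitted changes in TE close to 0. The 13 lay between −0.31 (EIF3L, SE 0.22) and 0.29 (EIF3B, SE 0.19), with a median of −0.00, and 7 of 13 had a lower fitted value. EIF3K had the smallest SE of the 13, with a change of −0.00 (SE 0.14), although its SE in RF alone was 0.19. The 12 members with a pyrimidine 5′ end had a median of 0.02 and 6 of 12 had lower fitted values, and the 22 others a median of −0.16 with 15 of 22 lower. None of the 12 passed an unadjusted p of 0.05 in TE with edgeR, while DESeq2's Wald test placed EIF3L below it (adjusted p = 0.135) and limma voom none. The difference between both sets was not tested.

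In RF alone, 23 of 34 members had a lower fitted value, against 48.7% of genes, with a median log2 change of −0.14. With edgeR, 0 members passed an unadjusted p of 0.05 in either direction (1.92% of genes lower and 1.76% higher), and DESeq2's Wald test (1.51% and 1.4% of genes) and limma voom also gave 0. At an adjusted p of 0.05 DESeq2's Wald test had 0.0075% of genes lower and 0.03% higher, with 0 members among them. The lowest were EIF2B3 at −1.29 (SE 0.67) and EIF5 at −1.14 (SE 0.81; 0.07, SE 0.22, without DMSO replicate 2), and the highest was EIF2B1 at 0.52 (SE 0.38).

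Fitted differences in total RNA were small and mostly negative. Fitted values were lower for 30 of 34 members, against 46.8% of genes, with a median log2 change of −0.04 over the members and 0.01 over all genes. EIF1, EIF1B, EIF2AK2 and EIF5B were the exceptions. EIF5B had 63.2 CPM in rapamycin replicate 2 and between 44.2 and 54.0 CPM in the other libraries, and its change was −0.17 without that culture. The tendency to lower values was not particular to the members. Of the related lists described below, 18 of 21 initiation partners (85.7%) and 8 of 10 elongation and termination genes (80%) were lower. In the cap-binding list 7 of 12 genes (58.3%) were lower, and in the ATF4 program 4 of 12 (33.3%). All 13 eIF3 subunits had lower fitted values, from −0.01 (EIF3E and EIF3L) to −0.18 (EIF3C, uncertain beside EIF3CL), with a median of −0.05. At an unadjusted p of 0.05, 6 members were lower and 0 higher with edgeR, against 2.51% and 3.32% of genes, all at an adjusted p of 0.766. They were EIF3K (−0.09, SE 0.03), EIF3A (−0.15, SE 0.05), EIF3C (−0.18, SE 0.07), EIF3D (−0.07, SE 0.03), EIF2B5 (−0.10, SE 0.05) and EIF1AX (−0.09, SE 0.04). DESeq2's Wald test gave 4 lower and 0 higher at an unadjusted p of 0.05 (2.27% and 3.89% of genes) and limma voom 6 lower (2.6% of genes). Neither called a member at an adjusted p of 0.05, where DESeq2's Wald test had 0.03% of genes lower and 0.188% higher. In a bulk library, fewer copies per cell and a change in the mix of cells cannot be told apart.

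EIF3K showed the pattern most clearly. Its total RNA was 1271, 1242 and 1219.9 CPM in DMSO and 1177, 1144 and 1186 CPM in rapamycin, so all rapamycin cultures were lower, by a few percent. EIF3A, the largest eIF3 subunit, had 761, 716 and 699 CPM in DMSO and 700.2, 602 and 664 CPM in rapamycin, and the highest rapamycin culture reached the lowest of DMSO. The 3 rapamycin values were under the 3 DMSO values for 8 of 34 members (EIF1AX, EIF2B4, EIF2B5, EIF2AK4, EIF3B, EIF3D, EIF3F and EIF3K), against 6.61% of genes, and above in 0 of 34, against 8.22%. Without DMSO replicate 1, no member passed an unadjusted p of 0.05 in total RNA. EIF1B was the member with the largest positive value, 0.15 (SE 0.08), from 8.76, 10.3 and 9.54 CPM in DMSO to 10.98, 10.97 and 9.76 CPM in rapamycin.

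**Figure D5:**
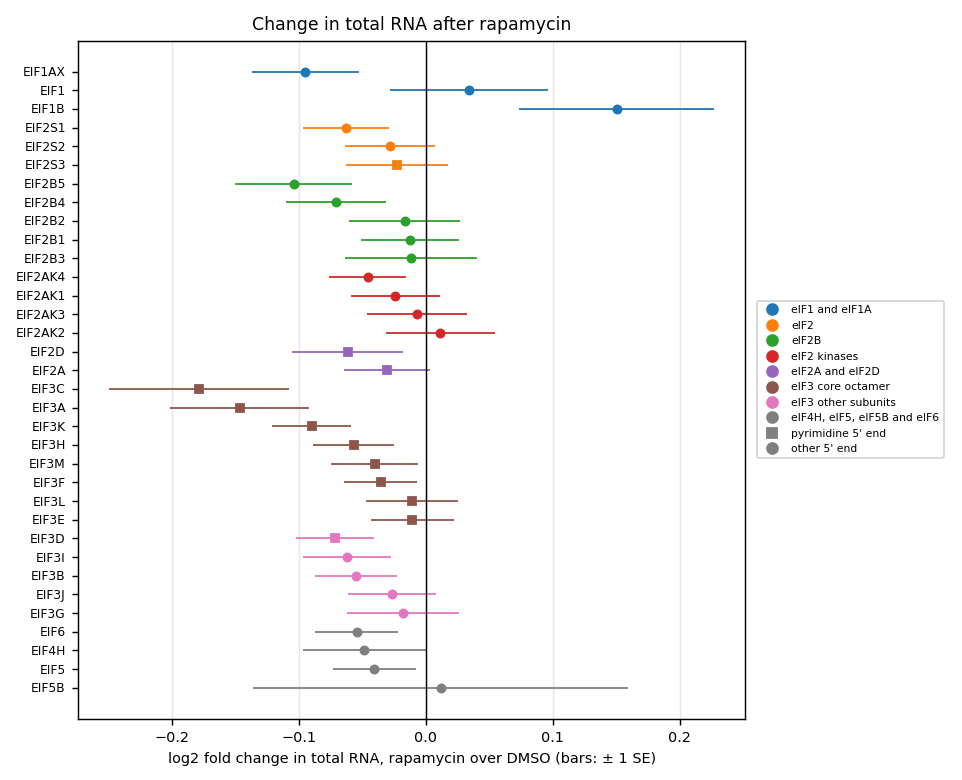
Fitted log2 change in total RNA after rapamycin for the 34 members (points, bars of 1 SE), ordered by subgroup, with squares for a pyrimidine 5′ end. All 13 eIF3 subunits lie left of 0, EIF1B lies furthest right at 0.15, and no change exceeds 0.2 in size.

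Other genes of the pathway were tested in the same fits. The 21 partners of the initiation factors include phosphatase subunits that restore eIF2, recycling factors, regulators of eIF2 kinases and start codon regulators, among others. With edgeR, 3 of 21 had lower and 2 higher TE at an unadjusted p of 0.05, against 6.42% and 6.17% of all genes. At an adjusted p of 0.05 there were 0, and the median was 0.12. The smallest p was for DENR, which with MCTS1 recycles ribosomes and restarts them after upstream frames. DENR drew 22, 77 and 76 RF reads from DMSO and 32, 39 and 4 from rapamycin cultures, a change in TE of −1.14 (SE 0.42, adjusted p = 0.292). Of 12 genes of the ATF4 program, which eIF2 phosphorylation switches on, 0 were lower and 1 higher (6.42% and 6.17% of all genes), with a median of 0.18. ATF4 itself had a change in TE of 0.35 (SE 0.41), and its log2 TE overlapped between treatments. The gene with higher TE was ATF5, a stress transcription factor translated through upstream frames. ATF5 drew 15, 29 and 54 RF reads from DMSO and 103, 63 and 22 from rapamycin cultures. The log2 TE was 0.18, −0.23 and −0.18 in DMSO and 1.02, 0.98 and 0.78 in rapamycin, above all DMSO cultures, a change of 1.09 (SE 0.31, edgeR unadjusted p = 0.00361, adjusted p = 0.231).

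For comparison, 12 cap-binding genes gave 1 lower and 0 higher TE at an unadjusted p of 0.05 (6.42% and 6.17% of all genes), with a median of −0.00. EIF4A2, an RNA helicase, drew 30, 79 and 176 RF reads from DMSO and 44, 55 and 20 from rapamycin cultures, and the log2 change in TE was −0.85 (SE 0.27, edgeR adjusted p = 0.244). Of 11 elongation and termination genes, 10 were tested, with 1 lower and 0 higher (against the same 6.42% and 6.17%) and a median of −0.04. The lowest p was for EIF5A2, a hypusine-containing factor, at −1.07 (SE 0.46, edgeR adjusted p = 0.360). None of these lists held a gene that passed an adjusted p of 0.05 in edgeR's test, and no difference between the lists was tested.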

How the data were processed

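Total RNA and RF libraries of 3 DMSO and 3 rapamycin cultures of PANC-1 cells were grouped by their labels. The labels do not say how separate the cultures were, so p-values measure the spread between these libraries. For TE, edgeR estimated 1 dispersion (spread) per gene over both library types. The tight total RNA libraries lower it, so the SE in TE can fall below that in RF alone, as for EIF2AK4 (0.31 against 0.55). The edgeR p-values in TE thus do not measure the RF spread alone and can be too small. The authors deposited raw exon counts per protein-coding gene, made from reads with a unique alignment (HISAT2 and featureCounts, GRCh37), FPKM values from Cufflinks 2.2.1 (version per the submitters' processing notes) and a cuffnorm-normalized signal per gene. Whether counting used strand is not given in the sources used here, and 12 members share exonic bases with an opposite-strand gene. The deposited table also holds the authors' own TE ratios, fold changes and p-values, which were not used.

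The tools were edgeR 4.0.16, DESeq2 1.42.0 and limma 3.58.1, run in R 4.3.3, and Python 3.11.15. Library sizes were scaled by TMM within each library type, and CPM values use them. A gene was fitted where its RF counts summed to at least 10 and its total RNA counts likewise. The TE change was the treatment by library type interaction of a robust quasi-likelihood fit in edgeR. RF and total RNA were also fitted alone. On simulated data the TE and RF fits missed most of the changes put in, and the TE fit called nearly as many unchanged genes as changed ones. A member that was not called may therefore still have changed, and a gene called in TE may be unchanged. The changes were put into genes drawn from all those tested, so recovery was not measured for the members. A prior count of 2 entered the log2 TE of each culture. RF density divides by coding length, while counts cover whole exons. Coding lengths and sequences are of the Ensembl canonical isoform (GENCODE, GRCh37), used because the isoform of highest FPKM was truncated for several members.

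All 34 members are named. Of the other lists, the gene with the smallest p in TE and any gene passing an adjusted p of 0.05 are named, and ATF4 beside them. The members and lists were chosen with earlier results of these data known. Replicate numbers do not pair the cultures: deviations of same-numbered libraries correlated between −0.216 and −0.061.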

Additional observations from a re-analysis of the deposited data

How the results depend on the processing

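Among the members, only EIF5B turned its direction while past an unadjusted p of 0.05. Its total RNA change was 0.01 with all cultures and −0.17 without rapamycin replicate 2 (edgeR unadjusted p = 0.0114, adjusted p = 0.895). In RF and total RNA no alternative called a member at an adjusted p of 0.05. In TE, DESeq2's Wald test called 1 member lower at an adjusted p of 0.05, EIF2B3 at −1.18. For RF alone the same test gave EIF2B3 an unadjusted p of 0.0761. The count of members with lower TE at an unadjusted p of 0.05 was 1 in the reported test, 4 with DESeq2's Wald test, 2 with a minimum of 60 counts (EIF2B3 and EIF2AK4, against 5.56% of genes), 2 with the replicate block (EIF2B3 and EIF2B4, 5.75%), 0 with limma voom (4.48%), 0 with a block for each culture (2.15%), and 0 to 2 when 1 culture was left out (4.46% to 13.2%). In the same leave-one-out fits 0 to 1 members had higher TE (4.6% to 9.59% of genes), 0 to 1 lower RF (EIF5 at −1.53 without DMSO replicate 1, 1.2% to 2.71%), 0 to 4 lower total RNA (1.66% to 3.14% of genes) and 0 to 1 higher total RNA (EIF1B, 1.97% to 12%). The 6 members with lower total RNA became 2 with a minimum of 60 counts (1.74% of genes) and 3 with limma-trend on the normalized signal (3.18%). With the replicate block they were 4 (2.51%), and as the numbers do not pair the cultures this is a check only. Over all alternatives EIF2B3 ranged from −1.47 to −0.77 and EIF5 from −1.51 to 0.13 in TE, and 11 to 13 of the 13 eIF3 subunits were lower in total RNA. The fold range of RF density over eIF3 without EIF3C was 31.2, became 70.5 with the exonic length of the whole gene, and lay between 27.96 and 45.1 when 1 DMSO culture was left out. For eIF2B it was 3.51, 4.57 with exonic length and 6.94 with the isoform of highest FPKM, and 12 members with a pyrimidine 5′ end became 6 with that isoform, an alternative for length chosen after seeing the data. With 1 CPM added in place of the prior count, also chosen after seeing the data, 2 members again had all rapamycin cultures below DMSO in log2 TE. RF depth limits single members: EIF2D and EIF2AK3 had 30 and 54 RF counts in all.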

Other observations

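EIF5 alone took 3.003% of all RF counts in DMSO replicate 2 (95% Wilson interval 2.97% to 3.04%, counting error only). In the other RF libraries its share lay between 0.572% in rapamycin replicate 2 (0.556% to 0.589%) and 0.919% in rapamycin replicate 3 (0.884% to 0.955%). In total RNA its share was between 0.0310% and 0.0330% in every library. The other 33 members are far from these values in footprints, the next being EIF3K with 7356 RF counts in all libraries against 54956 for EIF5.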
